A study of Mus musculus with 20 samples.

Results

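The 10 genes described here write, read, and erase DNA methylation or feed the enzymes that do so: Tet1, Tet2, Tet3, Idh1, Idh2, Tdg, Dnmt1, Dnmt3a, Dnmt3b, and Uhrf1. For each gene, every ChIP-Seq peak of the 12 deposited peak lists was taken that overlapped the gene body in the mouse assembly mm10 or the 20 kb on either side. This gave 958 of the 591292 peaks in all lists. Distances in kb from a start or into a gene run from the principal transcript start, which can lie inside the gene body. The lists hold H3K27ac, H3K4me1, and H3K4me3 in lineage-negative (Lin-) bone marrow cells, the stem and progenitor fraction that remains when mature cells are depleted by antibodies to their lineage antigens. H3K27ac marks promoters and enhancers in use. H3K4me1 marks enhancers, in use or poised, and H3K4me3 is typical of promoters.

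The 4 genotypes were WT (Ep300 fl/fl), Ep300Δ/Δ (Mx1-Cre;Ep300 fl/fl, labelled p300 Knockout), Tet2-/- (Ep300 fl/fl;Tet2-/-), and Ep300Δ/ΔTet2-/- (Mx1-Cre;Ep300 fl/fl;Tet2-/-). All mice were of C57BL/6 background, of both sexes, and received 3 doses of poly(I:C) at 6 to 8 weeks of age, so the WT and Tet2-/- controls carried the floxed Ep300 alleles and had the injections too. Mx1-Cre is driven by an interferon-responsive promoter, which poly(I:C) turns on, and is not limited to blood cells. The methods set experiments at 2 weeks after injection unless another time was given, and give none for ChIP-Seq. The number of mice behind each library is not given in the sources used here, nor is the part of Tet2 that its null allele lacks. Each genotype and mark had 1 library, so there is no replicate error, no P values were computed, and a fold enrichment, which is relative to the H3 library of the same list, was not compared between lists as an amount. A peak was instead followed by its presence and by its rank, the percentage of peaks in the same list with a lower fold enrichment. Sequencing depth is unknown from peak lists.

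Peak totals over the genome ranged from 18327 to 29659 for H3K27ac, from 90738 to 107392 for H3K4me1, and from 25012 to 27807 for H3K4me3, with the fewest H3K27ac peaks in Ep300Δ/ΔTet2-/- and the most in WT. Part of each list, from 0.137% to 7.17% of its peaks, had a q value over 0.05, the threshold given in the methods; the highest share was in H3K27ac of Ep300Δ/Δ. No H3K27ac or H3K4me3 peak at the 10 genes was among them, and 3 to 7 H3K4me1 peaks per genotype were. Lin- identity was visible at promoters: all 8 stem and progenitor markers examined, among them Kit, Runx1, and Spi1, had H3K4me3 in every genotype, and 5 had H3K27ac in every genotype. Promoters of the mature T cell markers Cd3e, Cd3g, and Cd4 and of Alb, Myh6, and Krt5, which mark tissues outside blood, had no H3K27ac in any genotype. Granulocyte markers had H3K27ac at 3 of 4 promoters in WT, 2 in Ep300Δ/Δ, 2 in Tet2-/-, and 1 in Ep300Δ/ΔTet2-/-, macrophage markers at 2, 2, 2, and 1 of 3, and erythroid markers at 2, 2, 3, and 1 of 3. The part of cell composition in the differences below was not tested.

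In mammals, cytosine in CpG dinucleotides is methylated by DNMT1, which copies the mark onto the new strand after replication, and by DNMT3A and DNMT3B, which place it de novo. UHRF1 binds hemimethylated DNA and brings DNMT1 to it. The TET dioxygenases oxidize 5-methylcytosine to 5-hydroxymethylcytosine and further, using 2-oxoglutarate, and the glycosylase TDG removes the higher oxidation products. IDH1 and IDH2 make 2-oxoglutarate from isocitrate. TET2, DNMT3A, IDH1, and IDH2 are recurrently mutated in myeloid malignancy, and the acetyltransferase p300, the product of Ep300, acetylates H3K27 at enhancers and promoters.

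The DNA under the acetylated regions that did or did not keep their peak is shown first. Away from promoters, taken here as 3000 bp on either side of any transcript start, 4 regions at these genes had H3K27ac in all 4 genotypes, 2 of them at Dnmt3a, and 1 region, in an intron of Dnmt1, had it in both genotypes with Ep300 and in neither without. For each gene the strongest such region is printed as its summit and 100 bp on either side, on the + strand of GRCm38 (mm10). Capitals mark matches to any of 7 short motifs, searched on both strands. The GATA factor motif was spelled AGATAAG, and the motif of RUNX proteins was spelled TGTGGTT. For ETS proteins such as PU.1 the letters AGGAAGT were searched, and for the CEBP family the letters TTGCNNAA. The AP-1 motif was taken as TGANTCA and the MYB motif as AACNGCC, and a CTCF core motif was the last of the set.
Tet3, chr6:83381970-83382170: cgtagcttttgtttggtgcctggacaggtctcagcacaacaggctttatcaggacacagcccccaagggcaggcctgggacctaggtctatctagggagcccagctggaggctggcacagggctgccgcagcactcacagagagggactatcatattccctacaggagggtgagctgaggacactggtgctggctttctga
Dnmt3a, chr12:3834363-3834563: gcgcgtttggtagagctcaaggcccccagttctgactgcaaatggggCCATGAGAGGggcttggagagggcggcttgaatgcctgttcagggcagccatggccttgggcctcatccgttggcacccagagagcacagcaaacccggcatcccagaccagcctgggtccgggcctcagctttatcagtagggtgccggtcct
Idh2, chr7:80078666-80078866: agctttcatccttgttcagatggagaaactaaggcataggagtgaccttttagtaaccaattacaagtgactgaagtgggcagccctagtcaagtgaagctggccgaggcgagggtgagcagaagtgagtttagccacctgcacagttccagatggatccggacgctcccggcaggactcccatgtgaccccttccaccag
Dnmt1, chr9:20946401-20946601: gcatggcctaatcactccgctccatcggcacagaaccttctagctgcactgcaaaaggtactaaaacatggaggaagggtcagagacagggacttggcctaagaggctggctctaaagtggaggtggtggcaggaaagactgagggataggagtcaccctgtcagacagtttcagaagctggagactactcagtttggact
The Dnmt3a window held the CTCF core, which 4.0% of the 10830 equally long windows at WT H3K27ac peaks away from promoters held. The Tet3, Idh2, and Dnmt1 windows held none of the 7. CpG dinucleotides numbered 2 in the Tet3 window, 2 at Dnmt1, 7 at Dnmt3a, and 5 at Idh2, against a median of 3 over the 10830 windows.

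Promoters of the 10 genes were far richer in CpG. The RefSeq table of GRCm38.p6 promoters, 250 bp before to 50 bp after each start, held all 10 genes with 16 starts, and these had a median of 23 CpG dinucleotides against 7 over all 32851 promoters. Tet2 had the most, 57, more than 99.8% of all promoters, and an alternative Dnmt1 start, at 20959888, the fewest, 2. At 13 of the 16 starts an H3K4me3 peak was present in all 4 genotypes, whereas H3K27ac was present in all 4 at 7. The 250 bases before a start are printed for Dnmt3b, whose start had H3K4me3 in all genotypes and H3K27ac in only 1, and for the Dnmt3a start at 3806980, at the long isoforms, whose CpG-dense window had H3K27ac in none. Both run 5′ to 3′ on the + strand with CpG dinucleotides in capitals, 21 at Dnmt3b and 38 at Dnmt3a; the Dnmt3a start was chosen after its values were seen.
Dnmt3b, chr2:153649199-153649448: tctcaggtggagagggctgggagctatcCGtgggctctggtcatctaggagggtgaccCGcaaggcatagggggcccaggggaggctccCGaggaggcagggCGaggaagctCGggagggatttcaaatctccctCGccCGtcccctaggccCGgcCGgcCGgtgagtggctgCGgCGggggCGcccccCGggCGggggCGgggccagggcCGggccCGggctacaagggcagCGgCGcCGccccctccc
Dnmt3a, chr12:3806730-3806979: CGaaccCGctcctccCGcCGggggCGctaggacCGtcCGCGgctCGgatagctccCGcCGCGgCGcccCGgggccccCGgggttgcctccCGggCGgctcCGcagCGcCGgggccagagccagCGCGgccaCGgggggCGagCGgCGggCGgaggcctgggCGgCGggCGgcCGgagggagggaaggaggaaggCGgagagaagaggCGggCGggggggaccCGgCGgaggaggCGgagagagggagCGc

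Every gene had peaks of all 3 marks in all 4 genotypes. H3K27ac peaks at the 10 genes numbered 53 in WT, 39 in Ep300Δ/Δ, 47 in Tet2-/-, and 36 in Ep300Δ/ΔTet2-/-. The matching H3K4me1 counts were 175, 151, 143, and 148, and those of H3K4me3 were 41, 36, 47, and 42. The fall without Ep300 was therefore seen in all 3 marks next to WT, and in H3K27ac and H3K4me3 next to Tet2-/-. As a share of their list, however, the H3K27ac peaks of these genes held a narrow range, from 0.172% to 0.196%, so their number moved with the size of the list.

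**Figure D1:**
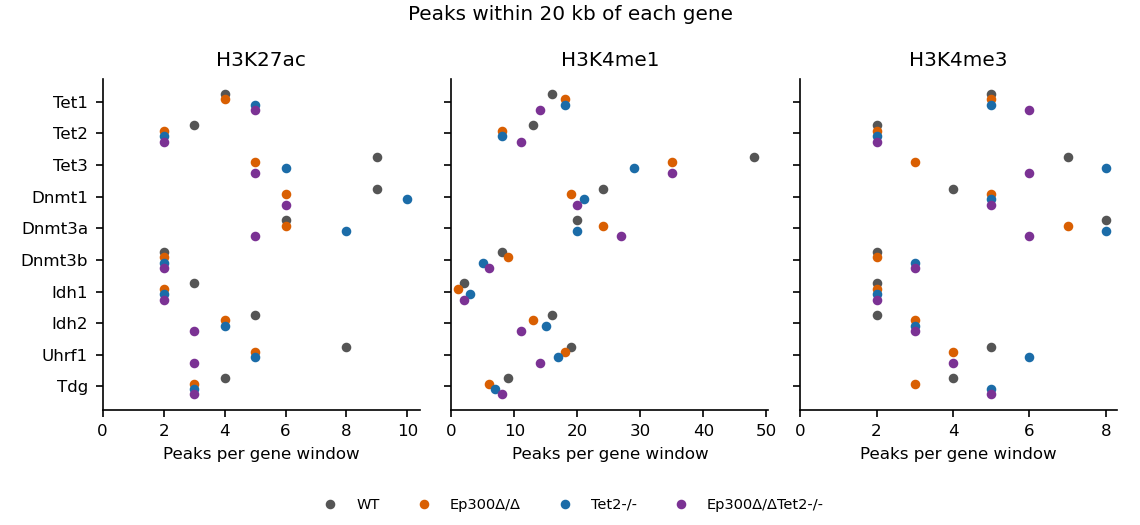
Number of peaks (x axis) within the body of each gene and 20 kb on either side (y axis), for each mark in a panel of its own; each point is 1 library, colored by genotype. Tet3 had the most H3K4me1 peaks, 48 in WT, and H3K27ac points of WT lie at or to the right of those of Ep300Δ/ΔTet2-/- at every gene but Tet1.

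To ask which regions disappear when Ep300 is deleted, the lists of 2 genotypes were merged and a region was called lost when the second list had no peak overlapping it by at least 1 bp. From WT to Ep300Δ/Δ, 18 of 51 H3K27ac regions at the 10 genes were lost, 35.3% with a Clopper-Pearson 95% interval of 22.4% to 49.9%, against 39.7% of all H3K27ac regions in the genome. From Tet2-/- to Ep300Δ/ΔTet2-/-, 16 of 44 were lost (36.4%, 22.4% to 52.2%), against 37.8%. With both lists cut to equal size this became 6 of 32 (18.8%), against 23.5%. Both shares lay near the background, and the intervals, which cover counting error only, include it. Away from promoters, 10 of 15 regions were lost in the first comparison (66.7%, background 62.5%) and 7 of 12 in the second (58.3%, background 61.9%). At promoters, 8 of 36 were lost in the first (22.2%, background 26.5%) and 9 of 32 in the second (28.1%, background 26.8%). These include promoters of neighboring genes: over the 4 lists together, 23 H3K27ac promoter regions lay at starts of the 10 genes and 18 at those of other genes. At Uhrf1, 4 of 8 regions were lost from WT to Ep300Δ/Δ, and 0 of 2 when the 20 kb flanks were left out. Gains were fewer, 3 of 36 regions from WT and 5 of 33 from Tet2-/- (8.33% and 15.2%, background 12.8% and 15%).

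Tet2 loss was compared in the same way; these comparisons share libraries with the preceding pair. H3K27ac was lost at 12 of 49 regions from WT to Tet2-/- (24.5%, 13.3% to 38.9%, background 35.6%) and at 11 of 38 from Ep300Δ/Δ to Ep300Δ/ΔTet2-/- (28.9%, 15.4% to 45.9%, background 31.2%). Away from promoters, 8 of 15 were lost in the former and 1 of 5 in the latter (53.3% and 20%, background 55.3% and 51.6%). H3K27ac was gained at 8 of 45 (17.8%, background 20.3%) and 7 of 34 (20.6%, background 18.5%). With only peaks of a −log10 q of at least 5, the first of these became 2 of 35 (5.71%, background 17.2%). H3K4me3 was the steadiest mark, with losses of 5 of 39 and 4 of 45 regions in the Ep300 comparisons (12.8% and 8.89%, background 15.4% and 13.3%) and of 2 of 41 and 2 of 36 in the Tet2 comparisons (4.88% and 5.56%, background 11.1% and 10.3%). H3K4me1 lost 47 of 155 and 32 of 135 regions in the Ep300 comparisons (30.3% and 23.7%, background 36.7% and 31.1%), and 36 of 145 and 36 of 136 in the Tet2 comparisons (24.8% and 26.5%, background 28.6% and 26.2%). In this main setting the intervals of the lost shares include the background for all 3 marks. Without the 20 kb flanks, the H3K4me1 share lost from WT to Ep300Δ/Δ was 25.0% (16.4% to 35.4%), an interval below the background of 36.7%. Gains of H3K4me1 numbered 29 of 137 and 30 of 133 in the Ep300 comparisons (background 24.1% and 23.4%), and 28 of 137 and 37 of 137 in the Tet2 comparisons (background 26.8% and 29.5%). Gains of H3K4me3 numbered 2 of 36 from WT to Ep300Δ/Δ and 0 of 41 from Tet2-/- to Ep300Δ/ΔTet2-/- (background 11.1% and 9.45%), and 4 of 43 and 2 of 36 in the Tet2 comparisons (background 13.6% and 13.2%). For the 0 of 41, the interval of 0% to 8.60% lies below the background, 1 such case among 24 lost and gained shares with 95% intervals. H3K4me1 and H3K4me3 gains were not recomputed under the alternative settings.

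**Figure D2:**
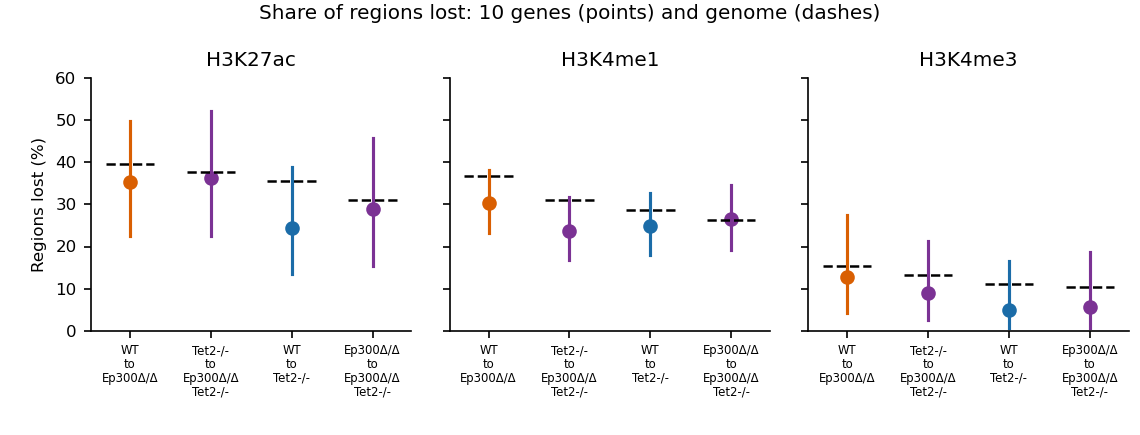
Percentage of regions lost (y axis) from the first to the second genotype of each comparison (x axis), in 1 panel per mark. Points are the regions at the 10 genes, vertical lines their Clopper-Pearson 95% intervals, and dashes the share over all regions of the genome; the dash lies within the interval in all 12 cases.

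When the 4 H3K27ac lists were merged, the 10 genes held 60 regions. Of these, 23 were acetylated in all 4 genotypes and 22 in only 1 (38.3% and 36.7%; 35.5% and 37.7% of all regions). Regions found in exactly 2 genotypes numbered 2 (3.33%, background 15.2%) and those in exactly 3 numbered 13 (21.7%, background 11.5%). Of the 13, 8 were missing only in Ep300Δ/ΔTet2-/-, the shortest list (61.5%, background 56.1%). WT alone held 11 of the 60 regions (18.3%, background 21.1%). Away from promoters there were 19 regions, 8 of them in WT alone (42.1%, background 32.1%), and every H3K27ac peak in them, 16 in WT, 6 in Ep300Δ/Δ, 13 in Tet2-/-, and 6 in Ep300Δ/ΔTet2-/-, overlapped an H3K4me1 peak of its genotype, the combination called an active enhancer here. Over the genome 87.8%, 88.6%, 85.7%, and 87.5% of such peaks did. Where acetylation was missing, H3K4me1 mostly was not, here and over the genome. Of the 15 regions without H3K27ac in at least 1 genotype, 13 had H3K4me1 in all 4 (86.7%, background 64.6%). The exceptions were the region 47.3 kb into Tet1 and the one 59.3 kb into Tet3. By genotype, H3K4me1 was present at 3 of 4 regions without H3K27ac in WT, 12 of 14 in Ep300Δ/Δ, 7 of 8 in Tet2-/-, and 12 of 14 in Ep300Δ/ΔTet2-/- (background 65.8%, 71.5%, 78.1%, and 76.7%). These counts were added after the values were seen and carry no interval. Of the regions counted, 3 at Tet3 lie under 1 H3K4me1 region, so they are not independent.

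**Figure D3:**
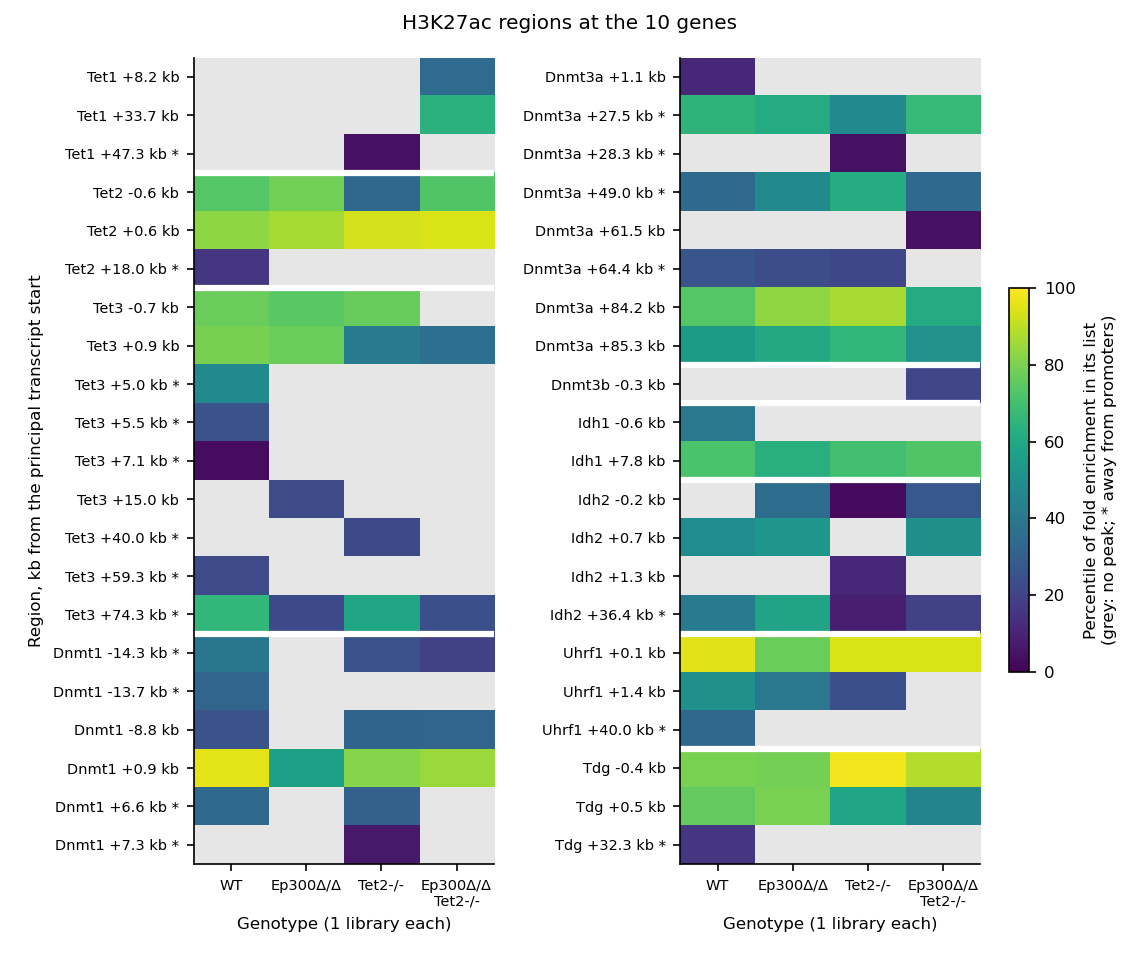
H3K27ac regions at the starts of the 10 genes or away from any promoter (rows, with the distance in kb from the principal transcript start, + being downstream; asterisks mark regions away from promoters) in the 4 genotypes (columns, 1 library each). Color is the rank of the fold enrichment within its list in percent and grey means no peak; regions at the promoters of neighboring genes are left out. Both promoter regions of Tet2 and of Tdg are filled in all 4 columns, and 8 of the 19 asterisked rows are filled in WT alone.

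Tet2, the TET enzyme deleted in 2 of the genotypes, lies on chromosome 3 at 133463679-133545139 on the - strand and has no other protein-coding gene within 20 kb. Its promoter carried a pair of peaks of each active mark in all 4 genotypes, so the null allele left the promoter marked. For H3K27ac, the peak over the start and the adjoining transcribed sequence (chr3:133543110-133544444) had a fold enrichment of 14.7 in WT, 14.1 in Ep300Δ/Δ, 22.1 in Tet2-/-, and 25.2 in Ep300Δ/ΔTet2-/-. The upstream peak (chr3:133544693-133545341) had 10.9, 10.9, 5.17, and 10.9. Within each list, the first was 1.34, 1.29, 4.27, and 2.31 times as enriched as the second, and this ratio was higher in both genotypes without Tet2 than in both with it. No genome share was computed for this order.

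H3K4me3 at the same pair of sites turned in order. The peak over the start (chr3:133542937-133544472) had folds of 30.3, 28.4, 42.0, and 35.7 in WT, Ep300Δ/Δ, Tet2-/-, and Ep300Δ/ΔTet2-/-, and the upstream peak (chr3:133544566-133545415) 53.8, 49.4, 28.0, and 34.2. The ratio of the first to the second was 0.563 in WT and 0.575 in Ep300Δ/Δ, and 1.497 in Tet2-/- and 1.04 in Ep300Δ/ΔTet2-/-. With Tet2 the upstream peak was the higher one, and without it the peak over the start was. Among the 1757 pairs of adjoining H3K4me3 regions in the genome found in all 4 lists, at most 500 bp apart, 80 (4.55%) likewise turned in both Tet2 comparisons and in neither Ep300 comparison. This pattern was picked after the values were seen, and the value in Ep300Δ/ΔTet2-/- is close to 1.

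**Figure D4:**
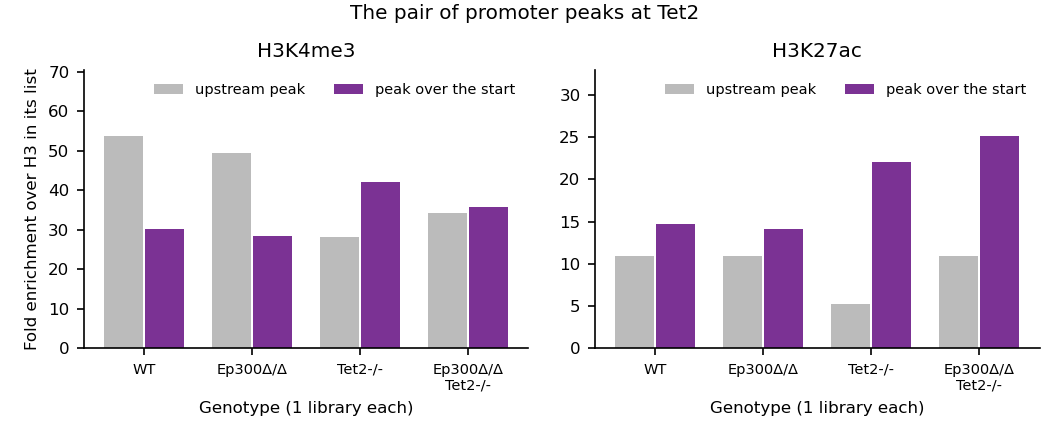
Fold enrichment over H3 (y axis, from 0) of the upstream peak (grey) and the peak over the start (purple) at the Tet2 promoter in each genotype (x axis), for H3K4me3 and H3K27ac; each bar is 1 peak of 1 library, with no error bar. In H3K4me3 the grey bar is the taller in WT and Ep300Δ/Δ, and the purple bar in Tet2-/- and Ep300Δ/ΔTet2-/-, by 1.04 times in the latter.

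The body of Tet2 held 1 further acetylated region, in an intron. It was a weak WT peak, with a fold of 4.18 and a rank of 15.8%, and no other genotype had it. H3K4me1 covered it in all 4, with folds of 8.46, 5.38, 6.80, and 6.60 and ranks of 94.4%, 68.3%, 76.5%, and 80.9% in WT, Ep300Δ/Δ, Tet2-/-, and Ep300Δ/ΔTet2-/-. A second H3K4me1 region, 3.9 kb upstream of the start (chr3:133548186-133548489), was also in all 4 lists, at ranks of 95.9%, 75.5%, 40.8%, and 3.41%. It was thus among the most enriched H3K4me1 peaks of WT and near the threshold in Ep300Δ/ΔTet2-/-.

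Tet3, which encodes another TET dioxygenase, lies at chr6:83362373-83459084 on the - strand and was the gene with the most H3K4me1 peaks, 48 in WT, 35 in Ep300Δ/Δ, 29 in Tet2-/-, and 35 in Ep300Δ/ΔTet2-/-. These covered a like length in each, 35.7, 34.4, 37.5, and 35.3 kb. H3K27ac peaks numbered 9, 5, 6, and 5. In the introns, WT had 5 active enhancers, Ep300Δ/Δ 1, Tet2-/- 2, and Ep300Δ/ΔTet2-/- 2 peaks in 1 region. The count of Tet3 regions lost from WT to Ep300Δ/Δ depended on the length of the lists, with 5 of 9 in the lists as deposited, 2 of 6 at equal size, and 3 of 6 at a −log10 q of at least 5. From WT to Tet2-/- it went from 4 of 9 to 2 of 7 and 2 of 6.

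That region, 74.3 kb into Tet3 (chr6:83381430-83382712), was acetylated in every genotype, with folds of 9.11 in WT, 4.05 in Ep300Δ/Δ, 7.70 in Tet2-/-, and 4.84 in Ep300Δ/ΔTet2-/-. Its ranks of 66.1%, 22.6%, 59.0%, and 24.4% separated the genotypes with Ep300 from those without in the lists as deposited. How often regions over the genome show such an order was not counted. The H3K4me1 region around this intronic region stood near the top of its list throughout, at 99.8%, 98.3%, 99.7%, and 96.1%. A cluster of 3 regions between 4.95 and 7.14 kb into the gene (chr6:83448958-83449552, chr6:83450676-83451069, and chr6:83451191-83451692) was acetylated in WT alone, with folds of 3.15, 4.75, and 6.44. H3K4me1 over this stretch (chr6:83447946-83452417) was nonetheless present in all 4, at ranks of 95.7%, 98.8%, 97.8%, and 65.1%. The remaining intronic regions were weak and in 1 list each, at 59.3 kb in WT (fold 4.56) and at 40.0 kb in Tet2-/- (fold 4.42).

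At the Tet3 promoter, the downstream H3K27ac peak (chr6:83454972-83455979) was present in all 4 at ranks of 79.6%, 77.4%, 41.0%, and 36.5%, higher in both genotypes with Tet2 than in both without. The upstream peak (chr6:83456709-83457390), with folds of 12.2, 9.71, and 11.8 in WT, Ep300Δ/Δ, and Tet2-/-, had no counterpart in Ep300Δ/ΔTet2-/-. H3K4me3 spanned both in all genotypes (chr6:83453363-83457717) at ranks of 71.9%, 77.4%, 84.1%, and 68.8%. An internal start 15.1 kb into the gene had H3K4me3 in all 4 lists (folds 45.3, 42.6, 30.1, and 16.3) and a weak H3K27ac peak in Ep300Δ/Δ only (fold 4.11).

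Tet1, the TET enzyme known best from pluripotent and germ cells, lies at chr10:62804570-62908996 on the - strand. Like Dnmt3b, it had H3K4me3 and little acetylation at its starts. H3K4me3 was present in all 4 genotypes at the start 12.5 kb downstream of the principal start (chr10:62885537-62887663), at ranks of 56.6%, 56.2%, 68.4%, and 71.6%. A second site, 33.6 kb downstream of the principal start (chr10:62865033-62866039), had ranks of 60.6%, 62.6%, 66.5%, and 75.0%. H3K27ac was absent from both in WT, Ep300Δ/Δ, and Tet2-/-. Only Ep300Δ/ΔTet2-/- had acetylation near a Tet1 start, at the second site (chr10:62865118-62865812, fold 9.02, rank 64.0%) and 8.2 kb into the gene (chr10:62890785-62891016, fold 5.58, rank 34.8%). The other H3K27ac peaks in the Tet1 window lay at the promoters of Ccar1 and Slc25a16, except a weak intronic peak in Tet2-/- (fold 3.15).

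Idh1, which encodes the cytosolic NADP-dependent isocitrate dehydrogenase (chr1:65158616-65186500, - strand), was acetylated at its internal start in all 4 genotypes (chr1:65177735-65179593), with folds of 10.5, 7.46, 9.73, and 10.9 and ranks from 63.1% in Ep300Δ/Δ to 72.9% in Ep300Δ/ΔTet2-/-. At the upstream start, shared with Pikfyve, H3K27ac was found in WT only (chr1:65186974-65187264, fold 5.79), although H3K4me3 there was present in all 4 at ranks of 75.0%, 91.8%, 70.9%, and 90.1%. Idh1 had no acetylated region away from promoters in any genotype and no H3K4me1 region shared by all 4.

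Idh2, the gene of the mitochondrial enzyme (chr7:80094846-80115392, - strand), had H3K27ac at its promoter in every genotype, but not at the same place. The peak just inside the gene (chr7:80114313-80115036) had folds of 6.57, 6.18, and 6.90 in WT, Ep300Δ/Δ, and Ep300Δ/ΔTet2-/- and was missing in Tet2-/-. The peak over the start (chr7:80115383-80115833) had folds of 4.77, 2.95, and 5.06 in Ep300Δ/Δ, Tet2-/-, and Ep300Δ/ΔTet2-/- and was missing in WT. Tet2-/- had a further weak peak 1.31 kb into the gene (fold 3.72). A single H3K4me3 region (chr7:80113882-80116018) covered both in all 4, with folds of 48.5, 47.1, 20.8, and 34.4. The region printed above for Idh2 lay 36.4 kb from the start, beyond the 3′ end of the gene (chr7:80078524-80079429). Zfp710 also overlaps the Idh2 window, and which gene the region acts on was not tested. The region was acetylated throughout, with folds of 5.9, 6.83, 3.5, and 4.54 and ranks of 41.4%, 58.4%, 8.37%, and 19.6%. In the lists as deposited, its ranks were higher in both genotypes with Tet2, and in Tet2-/- it lay near the threshold. These lists differ in length, and ranks at this region were not recomputed at equal size, so this order may not hold there.

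Tdg, the glycosylase gene (chr10:82629828-82650799, + strand), kept both of its promoter H3K27ac peaks in all 4 genotypes. The upstream peak (chr10:82629152-82629755) had folds of 13.2 in WT, 11 in Ep300Δ/Δ, 34.9 in Tet2-/-, and 17.8 in Ep300Δ/ΔTet2-/-, at ranks of 79.8%, 79.2%, 98.0%, and 88.5%. The downstream peak (chr10:82630050-82630701) had ranks of 76.0%, 80.0%, 59.3%, and 44.6%, and moved opposite to the upstream peak in both Tet2 comparisons. From Tet2-/- to Ep300Δ/ΔTet2-/- both fell in rank. Without Tet2 the upstream peak was the stronger by a wide margin, and with it the pair was close. Tdg had a single acetylated region away from promoters, a weak one beyond its 3′ end in WT (chr10:82662088-82662261, fold 4.18). The Tdg window also overlaps 2 other protein-coding genes, and which gene this region acts on was not tested.

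Dnmt1, the maintenance methyltransferase gene (chr9:20907209-20959888, - strand), showed the largest fall in rank at a promoter of these genes from WT to Ep300Δ/Δ. The H3K27ac peak at its main start (chr9:20951280-20952939) had a fold of 30.2 in WT, 6.66 in Ep300Δ/Δ, 13.7 in Tet2-/-, and 15.6 in Ep300Δ/ΔTet2-/-. Its rank dropped by 39.1 percentage points, from 95.9% to 56.8%, on deletion of Ep300 with Tet2 present, and moved by 3.27 points, from 81.7% to 85.0%, on the Tet2-null background. H3K4me3 at the same start (chr9:20950881-20953285) was likewise highest in WT and lowest in Ep300Δ/Δ, at ranks of 89.5%, 53.0%, 80.3%, and 80.5%. At this start the Ep300Δ/Δ library was the lowest for both marks, and these come from separate precipitations set against the same H3 library. However, 1 further H3K4me3 region near a Dnmt1 start was called in Ep300Δ/Δ alone. Falls of at least 20 points from WT to Ep300Δ/Δ were seen in 2846 of 12996 H3K27ac promoter regions held by both lists (21.9%) and in 1538 of 16610 for H3K4me3 (9.26%). Ranks depend on the length of the list: with the 4 lists of a mark cut to the size of the shortest, 15.5% of H3K27ac promoter regions fell by 20 points or more from WT to Ep300Δ/Δ and 15.4% rose, in place of 21.9% and 7.09%. On these lists the Dnmt1 change was -46.9 points for H3K27ac and -36.0 for H3K4me3, and 9.48 and 0.62 points on the Tet2-null background. In the lists as deposited, Dnmt1 was the only such gene for either mark among the 13 H3K27ac and 18 H3K4me3 promoter regions of the 10 genes.

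Other regions at Dnmt1 differed between genotypes too. A region 6.6 kb into the gene (chr9:20946167-20946643), the intronic sequence printed above, was acetylated in WT (fold 5.35) and Tet2-/- (fold 4.90) and in neither genotype without Ep300, the only region away from promoters at the 10 genes with that pattern. With lists cut to equal size, Dnmt1 lost 0 of 5 H3K27ac regions from Tet2-/- to Ep300Δ/ΔTet2-/- in place of 4 of 9, so loss in both comparisons was not kept. The intronic region had H3K4me1 in all 4 (chr9:20945300-20947243), with folds of 3.63, 4.31, 8.51, and 5.38. Upstream, the regions 8.8 kb (chr9:20961282-20962283) and 14.3 kb (chr9:20966956-20967514) from the main start were acetylated in WT, Tet2-/-, and Ep300Δ/ΔTet2-/- and missing only in Ep300Δ/Δ. Their folds were 4.77, 5.06, and 5.43 for the former and 5.77, 4.62, and 4.52 for the latter. The former lies within 3000 bp of the alternative Dnmt1 start at 20959888, so it counts as a promoter region. H3K4me1 around the second of them (chr9:20965627-20967840) ranked at 90.9%, 38.9%, 86.0%, and 93.6%, again lowest in Ep300Δ/Δ. Weak regions in 1 list each lay 7.29 kb into the gene in Tet2-/- (fold 3.43) and 13.7 kb upstream in WT (fold 5.25). The Ep300Δ/Δ H3K27ac list had 7.17% of its peaks over the stated q value, against under 1% in the other 3 H3K27ac lists; what this library contributes to the pattern was not tested.

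**Figure D5:**
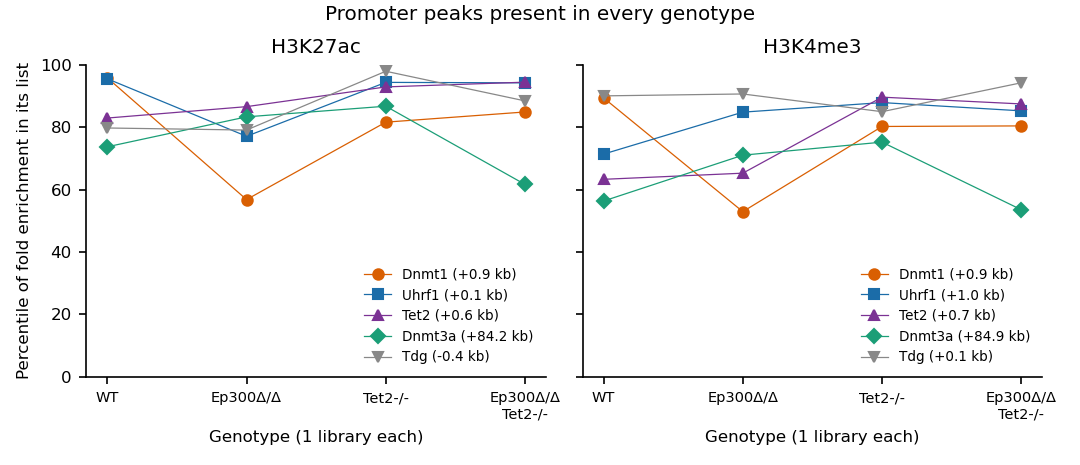
Rank within its list of the fold enrichment (y axis, percent) of promoter peaks present in all 4 genotypes (x axis, 1 library each), for H3K27ac and H3K4me3; lines join the values of 1 region and have no other meaning, and kb are distances from the principal transcript start. Dnmt1 is lowest in Ep300Δ/Δ in both panels, and the Dnmt3a internal promoter is lowest in Ep300Δ/ΔTet2-/- in both.

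Dnmt3a, a de novo methyltransferase gene that restrains stem cell self-renewal in blood (chr12:3806007-3914443, + strand), was acetylated at its internal start in all genotypes and near the start of the long isoforms in WT alone. The internal start lies about 84 kb into the gene. H3K27ac there was found in all 4 genotypes, in 2 peaks (chr12:3890924-3891586 and chr12:3891756-3892838), the first with folds of 11, 12.5, 16.4, and 8.55 and the second with 7.27, 7.12, 8.98, and 7.04. Near the long-isoform start, a weak WT peak 1.1 kb downstream was called (chr12:3808039-3808310, fold 3.86). A weak peak at another start, 61.5 kb into the gene, was found in Ep300Δ/ΔTet2-/- only (fold 3.3). H3K4me3 was present in all genotypes within 3000 bp of both main starts.

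The ranks of the marks at both Dnmt3a starts moved in opposite directions on Ep300 deletion with and without Tet2. For the first H3K27ac peak at the internal start they were 73.8% in WT, 83.4% in Ep300Δ/Δ, 86.8% in Tet2-/-, and 61.7% in Ep300Δ/ΔTet2-/-. For H3K4me3 there (chr12:3890699-3893219) they were 56.4%, 71.1%, 75.3%, and 53.6%. H3K4me3 just upstream of the long isoforms (chr12:3805898-3806746) ranked at 51.5%, 66.5%, 43.6%, and 10.0%, and the peak next to it (chr12:3806837-3807383) was called in WT (fold 4.62) and Ep300Δ/Δ (fold 11) and in neither genotype without Tet2. Another H3K4me3 region there, 1.5 kb downstream, did not share this order, with ranks of 74.4%, 57.4%, 63.6%, and 78.7%. Without Tet2, the falls at the first H3K27ac peak and the H3K4me3 region of the internal start and at the H3K4me3 region upstream of the long isoforms reached 20 points. Among the promoter regions in all 4 lists as deposited, such opposite changes, of at least 20 points in either, were found at 2 of 10 for H3K27ac and 3 of 17 for H3K4me3 at the 10 genes, against 19.3% and 15.5% of all, and were thus near the background.

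Between these starts Dnmt3a held 2 of the 4 regions away from promoters that were acetylated in all genotypes. Its active enhancers numbered 3 in WT, 4 in Ep300Δ/Δ, 6 in Tet2-/-, and 2 in Ep300Δ/ΔTet2-/-. The region 27.5 kb into the gene (chr12:3833887-3835175), printed above, had H3K27ac folds of 8.91, 7.26, 6.34, and 9.58, together with H3K4me1 and H3K4me3 in all 4. A second, 49.0 kb into it (chr12:3855236-3856882), had 5.39, 5.73, 8.14, and 5.53. Both were acetylated in every genotype, with or without Ep300. Another, at 64.4 kb (chr12:3870875-3872079), had 4.83, 4.13, and 4.34 in WT, Ep300Δ/Δ, and Tet2-/-, and no peak in Ep300Δ/ΔTet2-/-, where H3K4me1 was still present. A weak peak next to the first was called in Tet2-/- only (fold 3.14). H3K4me1 at Dnmt3a covered 19.3 kb in WT and 26.0, 25.4, and 24.5 kb in Ep300Δ/Δ, Tet2-/-, and Ep300Δ/ΔTet2-/-, the only gene of the 10 with more in all 3 mutants than in WT.

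Dnmt3b, the other de novo methyltransferase gene (chr2:153649450-153687730, + strand), had H3K4me3 at its promoter in all 4 genotypes (chr2:153648765-153651352), with folds of 53.9, 40.2, 37.9, and 25.9. Acetylation was found only in Ep300Δ/ΔTet2-/- (chr2:153648954-153649338, fold 4.62, rank 20.7%). A promoter with H3K4me3 and without H3K27ac was common: 42.8% of H3K4me3 promoter peaks in WT, 47.5% in Ep300Δ/Δ, 46% in Tet2-/-, and 51.5% in Ep300Δ/ΔTet2-/- had no H3K27ac peak. The remaining H3K27ac in the Dnmt3b window lay at the promoter of Commd7. H3K27ac was present at the starts of 8 of the 10 genes in WT, Ep300Δ/Δ, and Tet2-/- and of 10 in Ep300Δ/ΔTet2-/-, against 47.3%, 44.9%, 46.4%, and 43.1% of all protein-coding genes. The additional genes were Tet1 and Dnmt3b, with 3 peaks in all.

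Uhrf1, the partner of DNMT1 (chr17:56303321-56323486, + strand), had its main promoter H3K27ac peak in all 4 genotypes (chr17:56302660-56304161), with folds of 29.3 in WT, 10.4 in Ep300Δ/Δ, 24.2 in Tet2-/-, and 24.7 in Ep300Δ/ΔTet2-/-. Its ranks, 95.6%, 77.2%, 94.5%, and 94.3%, were lowest in Ep300Δ/Δ, as at Dnmt1. The change from WT was -18.5 points, and -21.2 on lists of equal size. H3K4me3 over the Uhrf1 start (chr17:56303054-56305583) did not share this order, at 71.4%, 84.9%, 88.0%, and 85.3%. A second promoter peak (chr17:56304256-56305175) had folds of 6.75, 5.09, and 4.55 in WT, Ep300Δ/Δ, and Tet2-/- and was missing in Ep300Δ/ΔTet2-/-. The only acetylated region away from promoters was a WT peak 40.0 kb downstream of the start (chr17:56343045-56343542, fold 5.31), with H3K4me1 in all genotypes. Because 3 other protein-coding genes overlap the Uhrf1 window, which gene this region belongs to is not known.

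Changes of at least 20 points in rank were counted at the promoter regions of the 10 genes in the lists as deposited. For H3K27ac, falls numbered 1 of 13 from WT to Ep300Δ/Δ and 1 of 12 from Tet2-/- to Ep300Δ/ΔTet2-/- (background 21.9% and 25.6%), and 3 of 13 from WT to Tet2-/- and 3 of 12 from Ep300Δ/Δ to Ep300Δ/ΔTet2-/- (background 19.9% and 23.4%). The falls without Tet2 lay at Tet2, Tet3, and Uhrf1 in the former and at Dnmt3a, Tdg, and Tet3 in the latter. Rises in H3K27ac numbered 0 of 13 and 2 of 12 in the Ep300 comparisons (background 7.09% and 8.03%), the latter at Idh2 and Tet2, and 0 of 13 and 1 of 12, at Dnmt1, in the Tet2 comparisons (background 10.1% and 10.4%). On lists of equal size, both internal Dnmt3a peaks (21.8 and 24.4 points) and Idh2 (24.0) rose from WT to Ep300Δ/Δ. Uhrf1 changed by -21.2 points there, and 15.4% of all promoter regions rose and 15.5% fell. From Tet2-/- to Ep300Δ/ΔTet2-/-, the Dnmt1 region 8.8 kb upstream rose by 20.8 points on such lists.

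For H3K4me3, 1 of 18 regions fell from WT to Ep300Δ/Δ and 2 of 17, both at Dnmt3a, from Tet2-/- to Ep300Δ/ΔTet2-/- (background 9.26% and 11%). None of 17 fell from WT to Tet2-/- and 2 of 17, at Dnmt3a and Tet3, from Ep300Δ/Δ to Ep300Δ/ΔTet2-/- (background 8.73% and 10.4%). Rises numbered 1 of 18, at Dnmt3a, and 2 of 17, at Idh1 and Idh2, in the Ep300 comparisons (background 8.38% and 8.71%). In the Tet2 comparisons they numbered 1 of 17, at Tet2, and 3 of 17, at Dnmt1, Dnmt3a, and Tet2 (background 9.82% and 10.8%). Tet2 was the only gene with a rise in H3K4me3 in both Tet2 comparisons. On lists of equal size, H3K4me3 at the internal Tet3 start changed by -20.3 points from Tet2-/- to Ep300Δ/ΔTet2-/-. The upstream Idh1 start changed by 21.6 points. Ranks in the Tet2 comparisons were not recomputed on such lists.

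At the promoters as a whole, 8 of the 10 genes had H3K27ac in all 4 genotypes and 10 of 10 had H3K4me3, compared with 40.0% and 60.1% of all 21924 protein-coding genes. Of 32 other genes of DNA methylation and demethylation, a list drawn up with the 10, 22 had promoter H3K27ac in all 4 genotypes, 4 in some, and 6 in none, and 29 had H3K4me3 in all 4. Those with acetylation in all genotypes included Hells, a chromatin remodeler needed for methylation, Trim28, a corepressor that protects imprints, and Ogt, which binds TET proteins. The 4 that varied were Dnmt3l, the cofactor of the de novo enzymes (WT and Tet2-/- only, folds 2.89 and 4.34), the glycosylase gene Smug1 (Tet2-/- only, fold 7.2), and the repair genes Xrcc1 and Gadd45b. Xrcc1 had folds of 11, 4.68, and 6.01 and Gadd45b folds of 5.81, 3.12, and 5.81 in WT, Ep300Δ/Δ, and Tet2-/-, and neither had a peak in Ep300Δ/ΔTet2-/-. Promoters without H3K27ac in any genotype included those of the glycosylase gene Neil2 and of Wt1, whose product binds TET2.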

How the data were processed

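ChIP-Seq of 3 histone marks was made in Lin- cells of 4 genotypes, from 5 μg of chromatin and 1 μg of antibody, with 10 ng of Drosophila chromatin as spike-in. Adapters were removed by the authors with Cutadapt 1.15. They used BWA 0.7.13 for alignment to mm10, dropped duplicates with Picard, and called narrow peaks with MACS2 2.1.1.20160309 against the H3 library, keeping peaks found in pseudo-replicates. Labels call the libraries single-end and the methods paired-end, and they differ on the H3 antibody. The deposited lists give a fold enrichment, a ratio to H3, −log10 values for P and q, a score, and the summit; the score deposited with each peak was not used. The lists are not described as scaled by the spike-in, and a region just under the threshold counts as absent, so counts move with the yield of a library. The 8 H3 and H3K27me3 samples were not analysed here, and a few genes and sequences are not reported here.

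Samples were grouped by the genotype and antibody in the labels. Gene bodies and transcript starts came from GENCODE M21 and sequence from GRCm38, in which all peaks of 21 chromosomes fitted and 16 of 16 promoter sequences matched. Promoters reached 3000 bp on either side of any start, and principal starts were those GENCODE tags as principal. Shares carry Clopper-Pearson 95% intervals. With 1 library per genotype and mark, no test between genotypes was made. Where a rank or ratio at a single region is said to separate genotypes, that order was not set in advance. Unless a genome share is given beside such an order, none was computed. Alternatives were a −log10 q of at least 5, lists cut to equal size, a stricter overlap (0.5 of the region), and windows without the 20 kb flank. On simulated peaks, 12 of 12 calls matched bedtools 2.31.1 and 300 of 300 overlap queries matched a full search. All 10 genes, their promoter regions, and their acetylated regions away from promoters were named by rule; the Tet2 pair, the Dnmt3a start, and the H3K4me1 count were chosen after their values were seen. The genes, lists, and rules were chosen with earlier results of these data known. Python 3.11.15, pandas 2.3.3, scipy 1.17.1, and pysam 0.24.0 were used.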

Additional observations from a re-analysis of the deposited data

Results flagged for a closer look

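At 2 of 10 H3K27ac and 3 of 17 H3K4me3 promoter regions of the 10 genes present in all 4 lists, the rank of the fold enrichment within its list moved one way on deletion of Ep300 with Tet2 present and the other way without Tet2, by at least 20 points in either. Each value comes from 1 library per genotype, so the difference between the 2 changes was not tested. Over the genome 19.3% of H3K27ac and 15.5% of H3K4me3 promoter regions did the same, so in the lists as deposited these counts lie near the background.

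The Dnmt1 H3K27ac promoter region starting at 20951280 on chromosome 9 changed by -39.1 points with Tet2 and by 3.27 points without it. The Dnmt1 H3K4me3 region starting at 20950881 changed by -36.5 and 0.179 points. In both, the change without Tet2 was close to 0.

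At the internal Dnmt3a start, the H3K27ac region starting at 3890924 on chromosome 12 changed by 9.61 points with Tet2 and by -25.1 without it, and the H3K4me3 region starting at 3890699 by 14.7 and -21.7. The H3K4me3 region upstream of the long isoforms, starting at 3805898, changed by 15.0 and -33.5 points. These 3 Dnmt3a regions rose in rank with Tet2 and fell without it, whereas the H3K4me3 region starting at 3807894 changed by -17.0 and 15.1 points.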

How the results depend on the processing

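No paired analysis was possible because each genotype and mark has 1 library and no result comes from a test. Of 16 shares of regions lost or gained at the 10 genes, each under 4 alternatives, 58 of 64 values stayed within the interval of the share reported, and 13 of 64 lay on the other side of the genome share. H3K27ac lost from WT to Ep300Δ/Δ was 27.3% against 26.7% with lists of equal size. Gains of H3K4me1 and H3K4me3 were not run under the alternatives. Genome shares under the same setting follow in parentheses. With only peaks of a −log10 q of at least 5, the H3K27ac share gained was 0.0% (4.46%) from WT to Ep300Δ/Δ and 5.71% (17.2%) from WT to Tet2-/-, and the H3K4me1 share lost was 43.7% (51.0%) from WT to Ep300Δ/Δ and 35.6% (44.1%) from Tet2-/- to Ep300Δ/ΔTet2-/-. With lists of equal size, H3K27ac lost from Tet2-/- to Ep300Δ/ΔTet2-/- was 18.8% (23.5%). With an overlap of at least 0.5 of the region, H3K4me1 lost from WT to Ep300Δ/Δ was 39.2% (42.3%). Without the flank it was 25.0% (36.7%), and its interval of 16.4% to 35.4% lay below the genome share. Counts of lost H3K27ac regions gene by gene were less stable: 55 of 160 values moved by over 1.5 times or to or from 0, namely 19 with the q threshold, 14 with equal lists, 19 without the flank, and 3 with the stricter overlap. With equal lists, losses from Tet2-/- to Ep300Δ/ΔTet2-/- went from 3 to 0 at Dnmt3a and from 4 to 0 at Dnmt1. Ranks were recomputed on lists of equal size, an alternative chosen after seeing the data. The opposite changes at the 5 Dnmt1 and Dnmt3a promoter regions kept their signs, with H3K27ac at the internal Dnmt3a start at 21.8 points with Tet2 and -20.6 without. For H3K27ac, the second internal Dnmt3a peak (24.4 and -3.97) and Uhrf1 (-21.2 and 1.73) then also met the rule. So did H3K4me3 at the internal Tet3 start (5.01 and -20.3). The genome share of opposite changes was not computed on lists of equal size. The cause was not tested. Sequencing depth is unknown, so a weak region missing from a list may lie just under its threshold.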
